A study of Mus musculus with 10 samples.

Results

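*Cnmd* encodes chondromodulin, a membrane glycoprotein of chondrocytes whose released C-terminal part inhibits the growth of endothelial cells, and it is 1 of the 29183 genes listed for both lineages of the data. Chondromodulin shares the BRICHOS fold with tenomodulin of tendon and ligament and with the ITM2 proteins. It is known from cartilage without blood vessels, where it is abundant in the resting and proliferating zones of the growth plate (GP) and declines as chondrocytes become hypertrophic. In GENCODE (GRCm38) *Cnmd* (ENSMUSG00000022025.13) lies on the minus strand at chr14:79637690-79662170, has 5 annotated transcripts of which 2 are coding, and overlaps 0 other genes.

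Cells were measured on 8 *Grem1*-lineage plates and 2 *Lepr*-lineage plates of C57BL/6 mice. *Grem1-TdT* mice carry a tamoxifen-inducible Cre driven by *Grem1* and a TdTomato reporter, and were fed tamoxifen chow for 2 weeks from 5 to 6 weeks of age. Articular cartilage (AC) and GP were excised from their hind limbs, and TdTomato-positive cells were sorted one to a well. *Lepr-TdT* mice of the same age carry a Cre driven by *Lepr*, and their cells came from crushed whole bones by sorting TdTomato-positive cells that lacked CD45, Ter119 and CD31. The TdTomato label marks descent from a cell in which the Cre was active and not the present cell type. The labels do not say how many mice a plate represents, and the plate was used as the replicate, so the spread between plates may be technical. The labels do not say which wells held AC and which held GP cells. *Grem1*-lineage cells were therefore split by the UMIs (unique molecular identifiers, each counting a molecule once) of *Clu*, *Cilp* and *1500015O10Rik*, all 3 known from articular chondrocytes. The 337 cells with at least 2.5% of their UMIs in these 3 genes are called marker-high and the 347 cells below it marker-low, and 68 of the 684 cells lay within 0.5 percentage points of this limit.

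All UMI totals and shares of both lineages, also that of the 2.5% limit, count only the 29183 genes listed for both. They are thus shares of this part of a cell's transcripts and would be lower over all genes. UMIs over the kept cells summed to 133289 to 179071 on a *Grem1*-lineage plate, and those of *Lepr*-lineage plates 1 and 2 held 64310 and 59981 over the same genes. The median marker-high cell held 1222 UMIs, the median marker-low cell 2006 and the median *Lepr*-lineage cell 505. Of the fixed marker lists, 11 of 13 articular markers were listed for both lineages and summed to 56.8 to 66.6 UMIs per 1000 in marker-high plate sums against 5.32 to 8.69 in marker-low ones, 3 of these genes being those of the split. The 14 listed of 22 chondrocyte markers summed to 175.0 to 241.8 per 1000 in marker-high and 139.4 to 183.6 in marker-low sums. Both groups thus carry the transcripts of cartilage cells. *Cytl1* alone made up 148.6 per 1000 in marker-high and 35.7 in marker-low cells. Of the 14 genes, 10 were higher in every marker-low than in any marker-high sum, and 2 were lower. Over all 983 genes tested these counts were 116 and 42. In the *Lepr* lineage the 5 listed marrow stromal markers summed to 26.8 and 37.9 per 1000. The 3 listed of 10 haematopoietic markers summed to 2.08 and 5.80 there. Among those not analysed in *Grem1*-lineage cells, *S100a8* had 8698 UMIs in 160 *Lepr*-lineage cells, against 2954 of *Cxcl12*. *Mpo* had 0 UMIs on plate 1 and 594 on plate 2, and *Ptprc*, which encodes CD45, had 14 in 9 cells. The origin of these UMIs was not tested. The libraries also stand apart in other ways that touch the results. *Lepr*-lineage plate 1 held all 360 *Cytl1* and all 17 *Col2a1* UMIs of that lineage, and plate 2 held 0 of either. In addition, all 96 well barcodes recur on every *Grem1*-lineage plate. The same barcode fell on the same side of the 2.5% limit in a median of 68.2% of the wells of 2 plates (50% to 77.1% over 28 pairs of plates), and its *Cnmd* share correlated between plates with a median Spearman rho of 0.20 (0.03 to 0.50). Within marker-low wells this median was 0.07 and within marker-high wells 0.03. In the 7 pairs with plate 4 the side was shared by 50% to 58.3% of wells, and in the other 21 pairs by 63.5% to 77.1%. The authors describe a random allocation of single cells to the plates. Whether cells were nevertheless placed by tissue of origin, or RNA or reads passed between wells, was not tested.

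The bases before the RefSeq start of *Cnmd* are shown with those of *Col9a1* and *Cytl1*, which among the named genes with an entry (14 of 29) followed and opposed *Cnmd* most closely. Each run is the 250 bases before the start in the GRCm38.p6 build, 5′ to 3′ on the strand of the gene, and capitals mark letters found in a search of both strands for the GC box GGGCGG, for the TATA box letters TATAAA, for the core of SOX sites ACAAT, for the letters CACCC and for the CCAAT box.
Cnmd, chr14:79662184-79662433, minus strand: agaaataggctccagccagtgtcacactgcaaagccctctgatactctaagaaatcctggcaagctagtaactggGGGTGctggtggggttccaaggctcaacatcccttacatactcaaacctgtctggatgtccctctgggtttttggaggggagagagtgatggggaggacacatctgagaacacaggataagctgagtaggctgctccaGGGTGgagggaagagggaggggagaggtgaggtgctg
Col9a1, chr1:24177360-24177609, plus strand: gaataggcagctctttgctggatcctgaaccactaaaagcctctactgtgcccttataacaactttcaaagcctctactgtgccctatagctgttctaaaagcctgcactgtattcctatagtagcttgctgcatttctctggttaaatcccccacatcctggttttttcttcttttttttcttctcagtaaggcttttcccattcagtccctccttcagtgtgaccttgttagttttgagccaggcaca
Cytl1, chr5:37735269-37735518, plus strand: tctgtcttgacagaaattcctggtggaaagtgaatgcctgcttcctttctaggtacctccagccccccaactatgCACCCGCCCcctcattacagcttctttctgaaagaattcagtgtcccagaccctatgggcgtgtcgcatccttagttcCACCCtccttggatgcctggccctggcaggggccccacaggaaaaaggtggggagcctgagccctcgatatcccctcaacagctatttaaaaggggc
In the *Cnmd* window the search found CACCC 2 times, read on the opposite strand and therefore seen as GGGTG, and none of the other 4 motifs. The upstream *Col9a1* window held none of the 5. *Col9a1* has another RefSeq start, whose window (chr1:24194953-24195202, not shown) held 1 CACCC and 1 CCAAT box. The *Cytl1* window held CACCC 2 times and 1 GC box, which overlaps the first CACCC. Of all 32851 windows of this length, 52.0% hold CACCC, 32.7% the GC box, 33.8% CCAAT, 27.7% ACAAT and 12.4% TATAAA. The *Cnmd* window holds 0 CpG dinucleotides, as do 7.87% of all windows, against a median of 6. These matches are descriptions of the letters only.

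*Cnmd* was found in the *Grem1* lineage and was almost absent from the *Lepr* lineage. On the 8 *Grem1*-lineage plates it made up 11.4 to 18.2 UMIs per 1000, with a median of 16.6 and a mean of 16.2 ± 2.09 (SD, n = 8). *Lepr*-lineage plate 1 held 3 *Cnmd* UMIs, or 0.0466 per 1000, and plate 2 held 0, which allows up to 0.05002 per 1000. All 8 *Grem1*-lineage plates lay above both *Lepr*-lineage plates. The *Grem1*-lineage cells came from excised cartilage and the *Lepr*-lineage cells from whole bones, with different sorts. Lineage therefore cannot be told apart from tissue and preparation in this comparison. The summed level was 672-fold higher in the *Grem1* lineage (95% counting interval 230 to 3259), and at least 324-fold higher than in *Lepr*-lineage plate 2. In edgeR's quasi-likelihood test on plate sums the log2 difference of *Lepr* against *Grem1* was -9.79 ± 0.73 (SE, Benjamini-Hochberg adjusted p = 1.35e-07), and its size depends on how a level near 0 is fitted. Without *Lepr*-lineage plate 1 the other plate held no *Cnmd* UMI, and the fitted value of -14.2 is no measure of size. Without plate 2 it was -8.91. Of 2944 genes tested, 16.8% were called lower in the *Lepr* lineage and 29.0% were called in either direction. The 3 *Lepr*-lineage UMIs lay in 3 cells of plate 1. One of these cells also held 54 *Cytl1*, 8 *Col2a1*, 9 *Chad* and 4 *Acan* UMIs beside 9 of *Cxcl12*, while the other two held 5 and 3 *Cytl1* UMIs beside 31 and 20 of *Cxcl12*. Their part in the *Lepr*-lineage level was not tested.

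The other genes of the BRICHOS family gave little to set beside it. Of the 10 genes fixed for this family 5 were listed for both lineages, and only *Cnmd* passed the filter on low counts. *Gkn1*, *Gkn2* and *Bricd5* had 0 UMIs in all 844 cells, and *Gkn3* had 7 UMIs in 7 marker-low cells. *Tnmd*, which encodes tenomodulin, and *Itm2a*, *Itm2b* and *Itm2c* were not analysed in *Grem1*-lineage cells. In the 160 *Lepr*-lineage cells *Itm2b* had 443 UMIs in 127 cells, *Itm2a* 84 UMIs in 48 cells, *Itm2c* 46 in 35 and *Tnmd* 1.

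The few tested genes of blood vessel growth moved in both directions between the lineages. Of 12 angiogenesis inhibitors 4 were listed and 2 were tested, and both were higher in the *Lepr* lineage. Of all 2944 tested genes 358 were called higher there and 495 lower, and lists with so few tested genes cannot be set against these shares. *Cxcl14*, a chemokine, differed by 3.07 ± 0.35 on the log2 scale (SE, edgeR adjusted p = 1.0e-05), and *Angptl4*, a secreted inhibitor of lipoprotein lipase, by 3.15 ± 0.57 (adjusted p = 6.64e-04). The inhibitor *Cnmd* and these inhibitors therefore had opposite directions. *Cxcl14* held 0.252 UMIs per 1000 in marker-high and 0.254 in marker-low cells, where *Cnmd* differed several-fold. Of 14 angiogenic ligands and receptors 5 were listed and 1 was tested. This was *Fgf2*, a growth factor, which was lower in the *Lepr* lineage by -3.44 ± 0.91 (adjusted p = 0.0092). *Flt1* had 0 UMIs in all groups, and *Angpt1* was read only in *Lepr*-lineage cells, with 14 UMIs against 0 in either *Grem1*-lineage group. Of 16 cartilage transcription factors 6 were listed and 4 were tested, and all 4 were lower in the *Lepr* lineage: *Creb5*, *Erg*, *Foxa3* and *Foxo1*. *Foxa3*, a forkhead factor of cartilage, had 104 UMIs in marker-low cells, 43 in marker-high cells and 0 in the *Lepr* lineage. These groups differ in their total UMIs, and per 1000 UMIs *Foxa3* stood at 0.136 in marker-low and 0.103 in marker-high cells. *Foxa2*, its relative known from hypertrophic differentiation, had 29, 5 and 0 UMIs, or 0.038 per 1000 in marker-low and 0.012 in marker-high cells. A single UMI in the *Lepr* lineage already amounts to 0.008 per 1000. The absence of *Foxa2* there therefore cannot be told from the low level in marker-high cells. Sox9, Sox5, Sox6, Sp1, Sp3 and Yy1 were not analysed in *Grem1*-lineage cells. Of the 22 chondrocyte markers 14 were tested and 14 were lower in the *Lepr* lineage, with a median log2 difference of -7.28 against -0.11 over all tested genes.

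Within the *Grem1* lineage *Cnmd* was several-fold higher in marker-low than in marker-high cells on every plate. Because the split uses other genes of the same cells and *Cnmd* was chosen with this pattern known, the values are given as a description with no test. In marker-low cells the plate sums ran from 18.3 UMIs per 1000 on plate 7 over a median of 22.2 to 29.0 on plate 4. In marker-high cells they ran from 2.61 on plate 7 over a median of 4.39 to 6.57 on plate 9. The lowest marker-low plate was thus above the highest marker-high plate. The means were 22.8 ± 3.06 and 4.51 ± 1.24 (SD, n = 8), and the mean log2 ratio within plates was 2.38 ± 0.36, or 5.20-fold, with a range of 3.29-fold on plate 9 to 7.03-fold on plate 7. With the 20 most abundant and the 3 splitting genes out of the total, the log2 ratio was 2.11 ± 0.38, or 4.31-fold. Of 983 genes with enough counts, 16.1% did not overlap between the groups in either direction and 11.8% were higher in all marker-low sums. Marker-low cells were 50.7% of the *Grem1*-lineage cells, held 64.7% of the UMIs and 90.3% of the *Cnmd* UMIs. Cells were also grouped by how often their barcode was marker-high on the other 7 plates. At most 2 times was the low side and at least 5 the high side. Cells between these limits were left out, and 556 remained. The low side held 21.6 and the high side 9.04 UMIs per 1000, a log2 ratio of 1.30 ± 0.50 with the low side higher on 8 of 8 plates. The order of the levels was marker-low, marker-high and *Lepr* lineage, and no neighbours in it overlapped between plates.

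**Figure D1:**
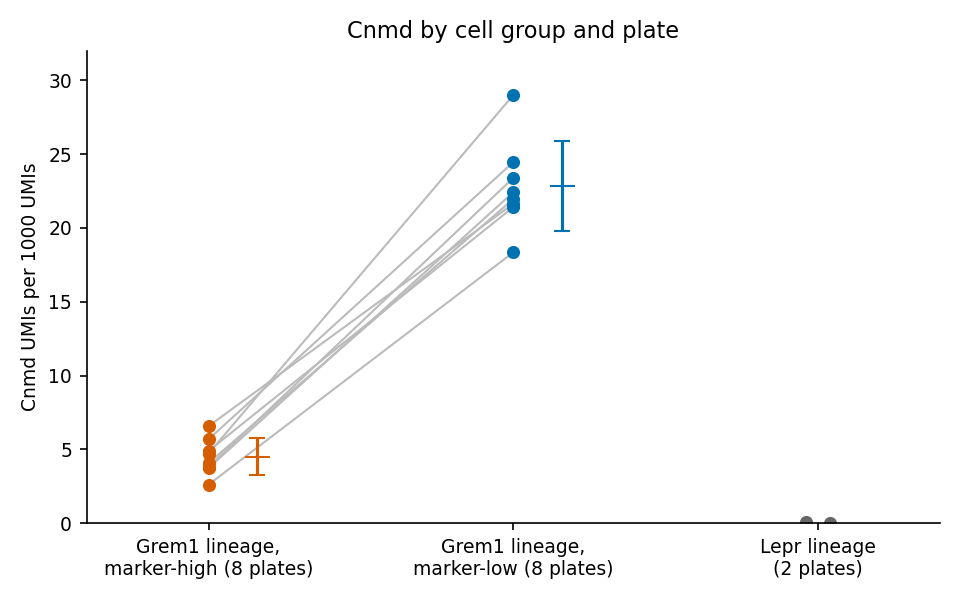
*Cnmd* UMIs per 1000 UMIs in plate sums of marker-high and marker-low *Grem1*-lineage cells (8 plates each, grey lines join the groups of a plate, error bars are the mean ± SD) and of 2 *Lepr*-lineage plates. The marker-low sums lie between 18.3 and 29.0, all marker-high sums are at or below 6.57, and the *Lepr*-lineage plates are at 0.0466 and 0.

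Low levels were spread over nearly all *Grem1*-lineage cells. At least 1 *Cnmd* UMI was found in 326 of 337 marker-high cells (96.7%, Clopper-Pearson 95% interval 94.2% to 98.4%) and in 344 of 347 marker-low cells (99.1%, 97.5% to 99.8%), against 3 of 160 *Lepr*-lineage cells (1.88%, 0.388% to 5.38%) at their lower depth. Thinned to 796 UMIs a cell, 273 of 290 marker-high and 323 of 326 marker-low cells still had a *Cnmd* UMI, with medians of 3 and 17.5 UMIs. Intervals cover counting error only. Wells that held mainly osteoblast transcripts (at least 50% of UMIs in the 5 listed osteoblast markers) on the same plates had *Cnmd* shares of 0% to 0.495% (median 0.0589%, 4 wells). No correction for RNA from other wells was made. The level in marker-high cells as a percentage of that in marker-low cells was 19.7% for *Cnmd*. It was 22.1% for *Col2a1* and 21.7% for *Fxyd2*, close to *Cnmd*, but 45.3% for *Acan*, 9.49% for *C1qtnf3*, 4.08% for *Epyc* (17 UMIs) and 2.19% for *Gm37788* (9 UMIs). These genes were thus not kept in 1 ratio between the groups.

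Over all 684 *Grem1*-lineage cells, the share of *Cnmd* among a cell's UMIs in the shared genes was bimodal. The trough between the modes was filled. The median share was 0.693%, and 409 cells lay below 1%, 84 between 1% and 2%, and 191 at 2% or above. Fits of beta-binomial components, which allow for the counting error of each cell, had a Bayesian information criterion (BIC, lower is better) of 5475 with 1 component, 5293 with 2 and 5312 with 3. In the fit of 2, 63.6% of cells had a mean share of 0.474% (SD 0.226) and 36.4% a mean of 2.70% (SD 0.788). On a log axis the modes were at 0.474% and 2.70%, and the density at the lowest point between them, 1.25%, was 0.123 times that of the lower mode. On a linear axis the modes were at 0.366% and 2.47% and the ratio was 0.252 at 1.28%. Each of the 8 plates alone had a lower BIC with 2 components, by 13.6 to 43.3, and 2 modes. Thinning to 796 UMIs left 2 modes, at 0.480% and 2.68%, with a ratio of 0.110 in 616 cells. A spread of 0.344 percentage points was expected from counting alone, and the observed SD was 1.22.

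**Figure D2:**
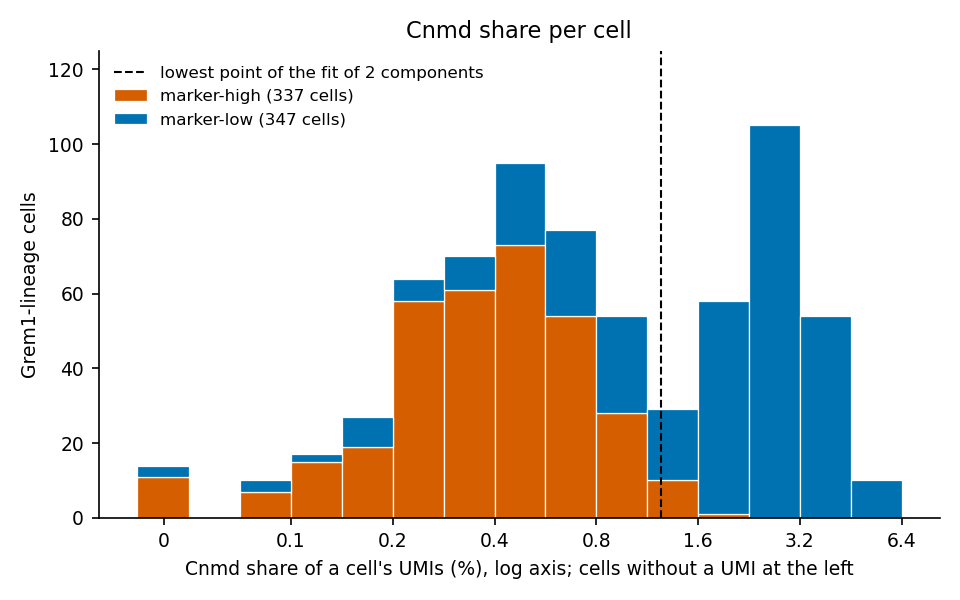
Number of *Grem1*-lineage cells by *Cnmd* share of their UMIs (%, log axis, bins of equal width on that axis, the 14 cells without a *Cnmd* UMI at the left), stacked by marker-high (337 cells) and marker-low (347 cells). One peak lies at 0.4% to 0.57% and one at 2.3% to 3.2%, with the lowest point of the fit of 2 components at 1.25% (dashed line), and marker-low cells are found in both peaks.

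The 2 modes did not coincide with the 2 cell groups. Marker-high cells formed a single low mode, with a median share of 0.392%, a highest share of 1.84% and a lower BIC for 1 component (1715) than for 2 (1726). Their SD of 0.295 percentage points was 1.48 times the 0.200 expected from counting alone. Marker-low cells had a median of 2.21% and a highest share of 5.58%, and their SD of 1.23 was 3.42 times that expected. Their BIC was lower with 2 components (3129) than with 1 (3200), with 32.9% of the cells around 0.696% and 67.1% around 2.77%. The trough between these was shallow on a log axis, at 0.759 times the lower mode, and deeper on a linear axis, at 0.326 times. In counts, 92 of the 347 marker-low cells were under 1%, 64 between 1% and 2%, and 191 at 2% or above, against 317, 20 and 0 of the marker-high cells. The median share differed between plates from 0.223% to 0.590% in marker-high and from 1.67% to 2.65% in marker-low cells.

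**Figure D3:**
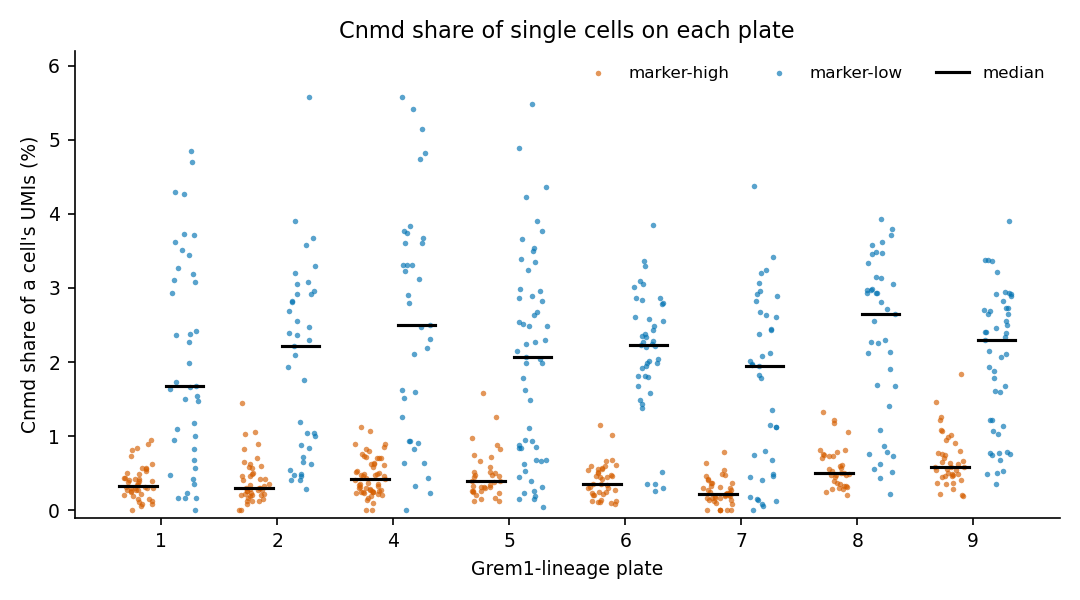
*Cnmd* share of the UMIs (%) of every *Grem1*-lineage cell on each of the 8 plates, marker-high and marker-low cells apart, with the group's median on that plate as a black line. Marker-high medians lie between 0.223% and 0.590% and marker-low medians between 1.67% and 2.65%, and every plate has marker-low cells at both ends of the range.

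High *Cnmd* shares were found where the genes of the split were lowest. Of 277 cells with less than 1% of UMIs in *Clu*, *Cilp* and *1500015O10Rik*, 240 had a *Cnmd* share of at least 1%, whereas 15 of the 70 marker-low cells with 1% to 2.5% did. All 191 cells with at least 2% *Cnmd* had at most 1.30% of UMIs in the 3 genes. The median *Cnmd* share was 2.37% in the 150 cells under 0.5% of UMIs in the 3 genes and 2.58% in the 127 cells from 0.5% to 1%. It was 0.650% in the 24 cells from 1% to 1.5%, 0.680% in the 25 from 1.5% to 2% and 0.629% in the 21 from 2% to 2.5%. Just above the limit, the 47 cells from 2.5% to 3% had a median of 0.401%, and the 163 cells from 5% upwards had 0.373%. The fall in *Cnmd* therefore lay nearer to 1% than to the 2.5% of the rule. Depth differed along the same axis, with a median of 2348 UMIs in the first of these bins and 1070 in the bin just under the limit. The *Cnmd* share rose with the UMIs of a cell over all cells (mean Spearman rho over 8 plates 0.51 ± 0.09, SD) and in marker-low cells (0.43 ± 0.16), but not in marker-high cells (-0.02 ± 0.17).

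**Figure D4:**
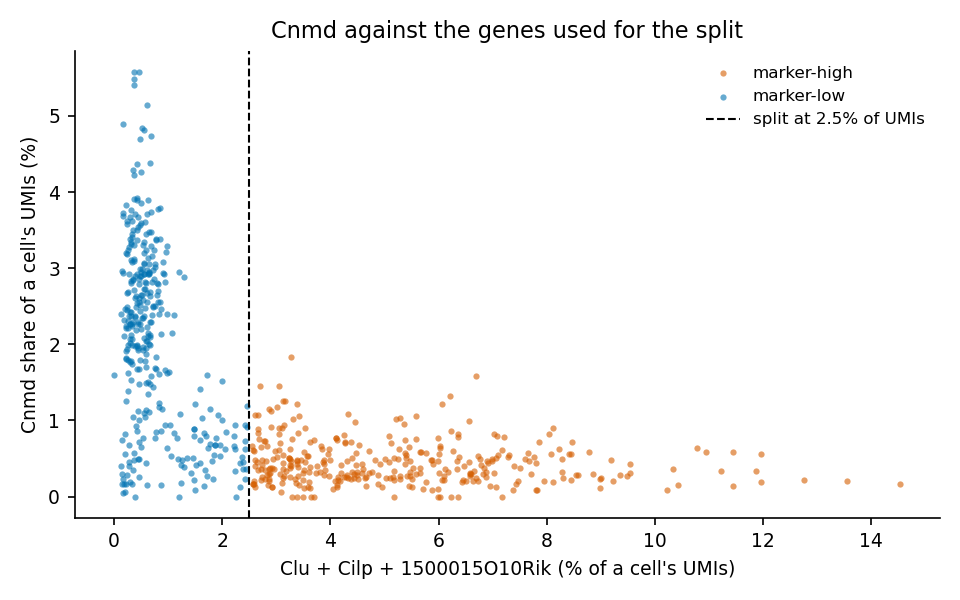
*Cnmd* share (%) of each of 684 *Grem1*-lineage cells against the share of its UMIs (%) in *Clu*, *Cilp* and *1500015O10Rik*, with the 2.5% limit as a dashed line. All 191 cells with a *Cnmd* share of at least 2% lie at or below 1.30% on the horizontal axis, and marker-low cells between 1% and 2.5% mostly lie below a *Cnmd* share of 1%.

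Marker-low cells of low and high *Cnmd* differed in other cartilage genes. In the 46 marker-low cells under 0.5% *Cnmd*, *Col2a1*, the chain of collagen II, made up 11.3 UMIs per 1000, and it made up 21.6 in the 46 cells from 0.5% to 1%, 62.0 in the 64 from 1% to 2%, 73.0 in the 114 from 2% to 3% and 78.0 in the 77 from 3% upwards. *C1qtnf3*, a secreted C1q-like protein of cartilage, went from 0.147 over 0.138, 0.591 and 1.12 to 3.35 UMIs per 1000 in the same order. These steps pool the cells of all plates, and *C1qtnf3* itself ran from 0.422 to 3.96 between marker-low plate sums. The part of plates in its steps was not tested. *Epyc*, a small proteoglycan of growth plate cartilage, went from 0.0737 to 1.53. *Col10a1*, the collagen of hypertrophic chondrocytes, went the other way, from 7.76 over 4.90, 3.14 and 0.803 to 0.335 UMIs per 1000. *Cytl1*, a secreted cytokine-like protein of cartilage, was at 53.4 and 115.6 in the 2 lowest steps and at 41.2, 21.5 and 19.3 in the others. The lowest step holds the 4 wells of mainly osteoblast transcripts, and with them *Bglap* (osteocalcin) stood at 23.7 and *Col1a1* at 36.7 UMIs per 1000 there, against 0.666 and 0.165 in the highest step. Without these 4 wells, left out after seeing the data, the other 42 cells held *Bglap* at 0.466, *Col1a1* at 3.66, *Col2a1* at 12.7 and *Col10a1* at 9.13. The marker-low cells under 1% *Cnmd* comprised 37 cells with under 1% of UMIs in the split genes, in which *Cytl1* stood at 37.9 and *Dcn* at 2.82 UMIs per 1000, and 55 cells with 1% or more, in which they stood at 127.5 and 10.7. *Bglap* stood at 25.4 in the 37 cells and at 2.69 in the 55, but at 0.538 in the 33 cells left without the same 4 wells, where *Cytl1* was at 43.1 and *Dcn* at 2.60.

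Across the cells of a plate, *Cnmd* was followed most closely by the collagens II, IX and XI and aggrecan. Spearman rho between the share of *Cnmd* and that of each of the other 960 genes detected in at least 20% of cells was averaged over the 8 plates. It is a description, as cells of a plate share its library and all shares have a common denominator. The median over all genes was 0.14, and 15 genes were at or above 0.5. With cells thinned to 796 UMIs the median was 0.05 and 9 genes were at or above 0.5. *Col2a1* led with 0.72 ± 0.06 (SD, 0.65 to 0.82 over the plates). The chains of collagen IX, a collagen on the surface of collagen II fibrils, followed with 0.66 ± 0.05 for *Col9a1*, 0.64 ± 0.06 for *Col9a3* and 0.59 ± 0.04 for *Col9a2*. *Col11a2*, a chain of the fibril core, had 0.62 ± 0.07 and *Acan*, the aggregating proteoglycan aggrecan, 0.60 ± 0.06. The small proteoglycan *Epyc* had 0.64 ± 0.05 and *Fxyd2*, a regulator of the sodium pump, 0.59 ± 0.09. The list was completed by *Gm37788* with 0.68 ± 0.06 and *Gm11225* with 0.63 ± 0.08. *Gm37788* has no assigned class (biotype TEC) and lies inside *Rasal2* on the same strand, and *Gm11225* is a processed pseudogene, so the origin of their reads is uncertain. All 10 were above 0 on 8 of 8 plates, also when thinned. Thinning left *Col2a1* at 0.73 and *Col9a1* at 0.64 and lowered *Gm37788* to 0.53, *Gm11225* to 0.51, *Col9a2* to 0.49 and *Epyc* to 0.47.

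Of the 10 genes most opposed to *Cnmd*, 5 were on the fixed articular list, among them the 3 genes of the split. *Clu* (clusterin) had -0.64 ± 0.05, *1500015O10Rik* (which encodes Ecrg4) -0.56 ± 0.09 and *Cilp*, of cartilage intermediate layer protein, -0.55 ± 0.07. Beside these genes of the split stood *Dcn* (decorin) with -0.62 ± 0.03, *Cytl1* with -0.61 ± 0.07, *Gas1*, a hedgehog co-receptor, with -0.50 ± 0.07 and *Cpe* (carboxypeptidase E) with -0.50 ± 0.05. *Cst3* (cystatin C) had -0.44 ± 0.10, *Fxyd5* -0.43 ± 0.08 and *Cilp2* -0.42 ± 0.05. All 10 were below 0 on 8 of 8 plates, and 5 genes of the 960 were at or below -0.5. The remaining articular-list genes past the filter were less opposed. *Abi3bp* had -0.36 ± 0.10, *Creb5* -0.28 ± 0.05 and *Foxo1* -0.10 ± 0.12, so the opposition was not uniform over that list. *Cytl1* is itself one of the most abundant transcripts, and leaving the 20 most abundant genes out of the total changed its value to -0.54. Among markers of mineralising cells *Col10a1* had -0.20 ± 0.20 (-0.56 to 0.03 over the plates), and -0.29 ± 0.15 with 8 of 8 plates below 0 when cells were thinned to 796 UMIs. For *Col10a1* the value was -0.15 ± 0.13 in marker-low cells alone and 0.09 ± 0.13 in marker-high cells alone. *Bglap* had 0.16 ± 0.11, close to the median of all genes, and *Col1a1* -0.03 ± 0.12. *Chad*, a chondroadherin of cartilage matrix, had -0.30 ± 0.14 and *Comp* 0.03 ± 0.13, so not all cartilage matrix genes followed *Cnmd*. Of 22 chondrocyte markers 14 passed the filter and their values ran from -0.61 (*Cytl1*) to 0.72 (*Col2a1*).

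The relations were present in marker-low cells and hardly seen in marker-high cells. The marker-low group is mixed, so its correlations can include differences between kinds of cell, which was not tested. In 55 of its cells, with at least 1% of UMIs in the split genes and under 1% *Cnmd*, *Col2a1* stood at 18.1 UMIs per 1000. In 240 cells under 1% in these genes and from 1% *Cnmd* upwards it stood at 73.3. The group also holds the 4 wells of mainly osteoblast transcripts. In marker-low cells alone *Col2a1* and *Col9a3* had 0.64, *Col9a1* 0.62, *Col9a2* 0.56 and *Epyc* 0.55, and each was above 0 on 8 of 8 plates. The lowest values there were -0.47 for *Dcn*, -0.44 for *Cytl1*, -0.43 for *Cpe*, -0.32 for *Clu* and -0.32 for *Cd200*. In marker-high cells alone the largest value was 0.17 and the lowest -0.19 over the same genes. At a median of 5 *Cnmd* UMIs a cell such weak correlations are no finding, and the difference between the groups was not tested. The genes at these ends were *Gm19246*, *Eif4g1*, *Col2a1*, *Gm11989* and *Cwc15* on the positive side and *Gm5321*, *Cd14*, *Gm15536*, *Clu* and *Gm42845* on the negative side, of which 5 are processed pseudogenes.

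**Figure D5:**
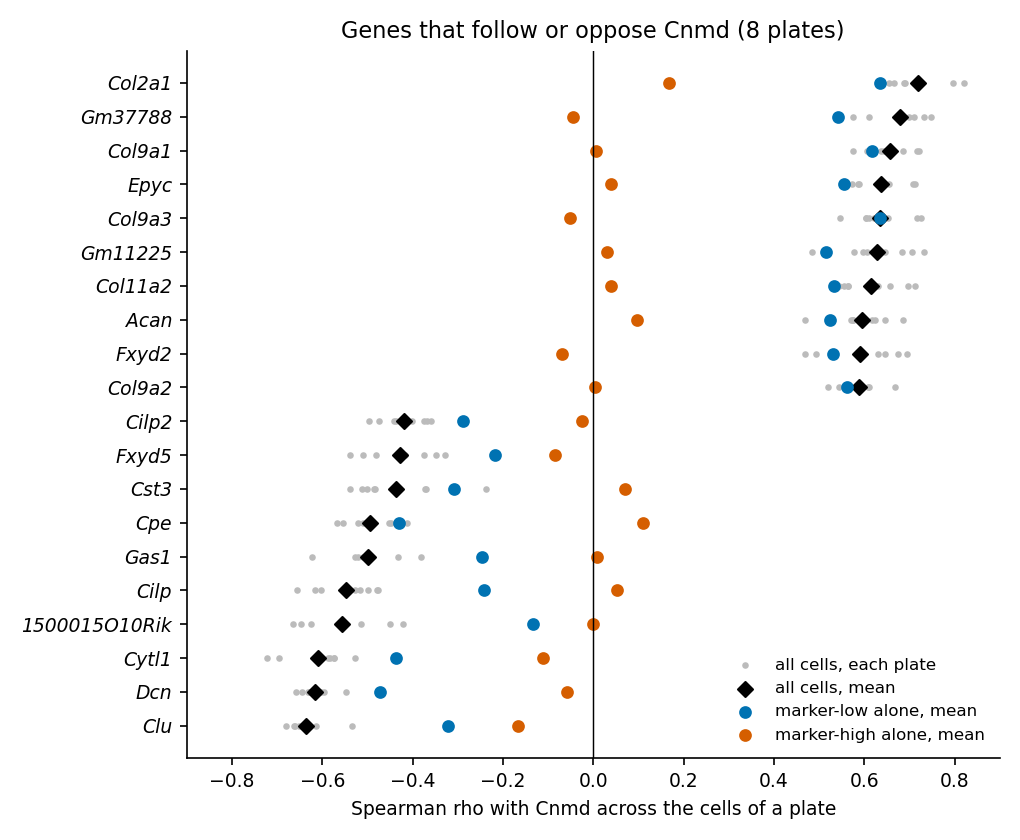
Spearman rho with *Cnmd* across the cells of a plate for the 10 genes with the highest and the 10 with the lowest mean over 8 plates, with grey points for each plate, black diamonds for the mean over all cells, and blue and orange points for the mean in marker-low and in marker-high cells alone. All 20 means in marker-high cells lie between -0.17 and 0.17, and in marker-low cells the 10 followers lie between 0.52 and 0.64.

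*Cnmd* was also set beside genes that can divide the groups further, with no test. In marker-low cells it stood at 24.7 UMIs per 1000 in the 166 cells with an *Fgfr3* UMI and at 20.1 in the 181 without, whose median depths were 2268.5 and 1702 UMIs. It stood at 19.7 in the 135 with a *Cd200* UMI and 24.6 in the 212 without. In marker-high cells the values were 4.76 with and 4.28 without *Foxo1*, and 4.46 with and 4.47 without *Cd200*, and the ranges over plates overlapped in all 4 comparisons.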

How the data were processed

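Cells had been sorted into 96-well plates and read with UMIs. The authors deposited raw UMI counts per gene and cell, whose notes name UMI-tools, STAR, featureCounts, SAMtools, Seurat and mm10, without versions. The *Grem1*-lineage table ends in the alphabet at *Gm5763*, so genes after it were not analysed here in that lineage, and the 29183 shared genes hold 40.9% of the *Lepr*-lineage UMIs. Of 768 *Grem1*-lineage and 162 *Lepr*-lineage wells, 684 and 160 with at least 350 detected genes were kept. This minimum was counted over all genes listed for a lineage, 29183 for *Grem1* and 50508 for *Lepr*, so it was less strict for *Lepr*. Counted over the shared genes, 77 *Lepr*-lineage cells passed it, and the log2 difference of *Cnmd* between lineages was then -9.99. No doublet caller was run, as cells were sorted singly.

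Counts were summed by plate and tested between lineages with edgeR 4.0.16 (R 4.3.3, quasi-likelihood, TMM, filterByExpr, Benjamini-Hochberg adjustment, threshold 0.05), with DESeq2 1.42.0 as an alternative. Everything within the *Grem1* lineage is description: shares of UMIs, beta-binomial mixtures (scipy 1.17.1) and Spearman correlations within plates. Group overlap was counted over genes in plate sums of at least 10 cells. Named genes were the 10 highest and 10 lowest mean correlations, the 5 at each end within each cell group, and the gene lists. The gene, split and lists were chosen with earlier results of these data known. Steps were tested on simulated data.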

Additional observations from a re-analysis of the deposited data

Results flagged for a closer look

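The whole-lineage level of *Cnmd* was lowest on *Grem1*-lineage plate 7, at 11.4 UMIs per 1000 against 15.7 on the next lowest plate, a gap larger than the limit set for 8 samples. That plate also had the lowest level in marker-low and in marker-high cells, but the low-to-high ratio was the largest of the 8 plates, at 7.03-fold. The correlation of *Clu* with *Cnmd* on plate 6, at -0.53, stood apart from the nearest plate at -0.61. Gaps were examined in 27 sets of plate values and 2 passed, and chance passes about 1 in 20 such sets.

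*Gm42845*, a processed pseudogene, had a mean correlation of -0.17 with *Cnmd* in marker-high cells, below 0 on 8 plates, and of 0.22 in marker-low cells, above 0 on 8 plates. The difference was not tested, and the reads of such a locus can belong to its parent gene. The 84 *Grem1*-lineage wells under the minimum of 350 genes, outside all comparisons, held 7.01 *Cnmd* UMIs per 1000, with a UMI in 74 of 84 wells.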

How the results depend on the processing

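*Cnmd* stayed lower in the *Lepr* lineage and past the threshold under all 19 alternatives, with a highest adjusted p of 0.0020, and the log2 difference lay between -14.2 and -8.91 when single plates were left out. Plates 1 and 2 of each lineage share only a number (correlation of their deviations 0.10 over 1752 genes), and fits limited to these 4 plates gave -9.66 with the replicate number as a block and -9.55 without it. The fit of all plates called 853 of 2944 genes, and those of the 4 plates, in which 1915 genes were tested, called 489 with the block and 451 without it. With marker-high cells alone against the *Lepr* lineage, 557 of 1298 tested genes were called, which is fewer genes but a larger share. The log2 ratio of marker-low to marker-high cells was 2.32 to 2.47 without single plates and 1.30 by the barcode on other plates (added after seeing the data), and the cause was not tested. The trough of the share was 0.108 to 0.145 without single plates, 0.653 in marker-high and 0.759 in marker-low cells alone. Genes with a correlation of at least 0.5 in size numbered 19 to 21 without single plates, 0 in marker-high and 10 in marker-low cells alone. Of the 20 correlations 7 changed sign in marker-high cells, to -0.045 for *Gm37788*, -0.051 for *Col9a3*, -0.068 for *Fxyd2*, 0.053 for *Cilp*, 0.0092 for *Gas1*, 0.11 for *Cpe* and 0.071 for *Cst3*. The *Lepr*-lineage level rests on 3 UMIs and 2 plates.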

Other observations

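In marker-high cells *Col2a1* stood at 11.9 UMIs per 1000 in the 222 cells under 0.5% *Cnmd*, 15.97 in the 95 cells from 0.5% to 1% and 22.1 in the 20 cells above. In the same order *Col9a1* stood at 0.620, 0.830 and 1.29, *Fxyd2* at 1.01, 1.28 and 2.25, *Acan* at 2.50, 2.49 and 3.78, and *Clu* at 21.1, 18.1 and 11.7. *Cytl1* stood at 154.4, 137.1 and 134.9, and *Dcn* at 22.3, 23.4 and 21.5. *Col10a1* stood at 4.88, 5.41 and 8.24, the opposite order to that in marker-low cells. No test was made of these values, and the last step holds 20 cells. The 15 marker-low cells with 1% or more of UMIs in the split genes and at least 1% *Cnmd* carried both kinds of transcript, with *Cytl1* at 104.05 and *Col2a1* at 42.2 UMIs per 1000.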
